A study of Homo sapiens with 2 samples.

Results

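The 49 genes described here encode the machinery that copies nuclear DNA, from the complex that marks replication origins to the enzymes that supply deoxynucleotides. They were chosen by name, as the rows of the deposited table that carry the symbols of origin recognition and helicase loading factors, MCM and GINS subunits, replicative polymerases, replication factor C, RPA, the S-phase kinases and the nucleotide enzymes. All 49 were found, each in 1 row, among 61541 genes, of which 26218 had at least 1 read. Huh7 is a line of human hepatocellular carcinoma cells, and its total RNA was sequenced in 2 libraries. Huh7-NC cells received a control siRNA, and Huh7-si cells received an siRNA against BRF2, a subunit of the transcription factor that brings RNA polymerase III to promoters such as that of U6 snRNA. Each condition had 1 library, nothing stated that the libraries came from separate cultures, and the siRNA used among those of the study was not named for the sequencing. The comparison asks how the RNA of replication genes differed between cells with and without the BRF2 siRNA.

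Replication starts at origins bound by the origin recognition complex (ORC), where CDC6 and CDT1 load rings of MCM2 to MCM7, the core of the replicative helicase. The kinases CDC7-DBF4 and cyclin E-CDK2 then help turn these rings into active helicases with CDC45 and GINS, and polymerase α with primase starts each strand, polymerase ε extends the leading strand and polymerase δ the lagging strand. Many of these genes are transcribed at the entry into S phase under E2F transcription factors, and they are abundant in dividing tumor cells such as hepatoma lines.

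Because E2F-regulated transcription is a known shared feature of the group, short promoter stretches of members at both ends of the measured range are shown first. RefSeq promoter windows (GRCh38.p14, 250 bases before to 50 after the start) were matched for 42 of the 49 genes, and those of MCM4, MCM5, GINS4, CCNE2, POLD3, RPA2 and RPA3 were not matched. The 30-base stretches are written 5′ to 3′ on the strand of the gene, and the capitals mark an E2F-like match, that is TTCCCGC or, with other middle letters, TTGGCGC, and likewise TTCGCGC and also TTGCCGC, on either strand. The first 6 belong to the members with a match that had the lowest log2 fold changes (-0.79 to -0.51), and the last 4 to members with a match whose interval lay above 0 (0.21 to 1.11). They were picked after these values were known.
TK1: aagcggtcggcGCGGGAAccaggggcttac
CDC6: gccattcggatTTGGCGCgagcgcggctgg
PCNA: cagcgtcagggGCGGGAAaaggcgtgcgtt
GINS2: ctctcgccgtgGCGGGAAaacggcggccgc
RFC2: tgcctcgggtgGCGGGAAgaggaggcgcga
TYMS: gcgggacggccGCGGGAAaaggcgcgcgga
POLE: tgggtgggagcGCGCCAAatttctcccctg
POLA1: ttttgggctggTTGGCGCggaatcgggaga
RFC1: cgcgggagaagttgTTGGCGCgaatggatc
CDC7: ccagagcggcgGCGGGAAgtgttgcgcagg

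These stretches lie at chr17:78187046-78187075 (TK1, minus strand), chr17:40287876-40287905 (CDC6, plus), chr20:5126663-5126692 (PCNA, minus), chr16:85688967-85688996 (GINS2, minus) and chr7:74254386-74254415 (RFC2, minus). The others lie at chr18:657603-657632 (TYMS, plus), chr12:132687342-132687371 (POLE, minus), chrX:24693923-24693952 (POLA1, plus), chr4:39366313-39366342 (RFC1, minus) and chr1:91500831-91500860 (CDC7, plus). An E2F-like match stood in the windows of 30 of the 42 genes (71.4%), against 15.3% of 27305 genes with a window and 25.1% of the 9904 of these with at least 100 reads over both libraries. The CCAAT box (CCAAT on either strand), whose letters can overlap an E2F-like match, stood in 24 of the 42 (57.1%, against 39.7% of all genes with a window and 43.4% of those with at least 100 reads). The cell cycle homology region (TTTGAA or TTCGAA on either strand) stood in 3 of the 42 (7.14%, against 19.5% and 15.7%). The 30 genes with an E2F-like match had a median log2 fold change of -0.29 and the 12 without had -0.12. Relative to genes of like length, a scale explained below, these medians were -0.37 and -0.41, and the difference was not tested on either scale.

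The estimated reads on genes summed to 22852648 in Huh7-NC and to 22089016 in Huh7-si. Values are given as estimated reads, as CPM (reads scaled to the total of reads on genes in each library) or, where genes are compared with each other, as TPM, which is scaled for length. BRF2 itself had 1280.52 reads in Huh7-NC against 363.72 in Huh7-si, or 56.0 and 16.5 CPM, so the library labelled si-BRF2 had 70.6% less (log2 fold change -1.77, 95% interval -1.94 to -1.60). All 14 hepatocyte markers were detected, and they went both ways, 7 above 0 and 7 below. They ran from APOA1 (677 and 381 CPM, log2 fold change -0.83) to APOB (914 and 1874 CPM, 1.04, called higher), with ALB at 5555 and 5155 CPM. Relative to genes of like length APOB was at 0.36, which is under a fold of 2. Of 9 markers of leukocytes, endothelium and fibroblasts, DCN had no read in either library, which allows up to 3 reads in each, PTPRC had 5 and 1, CDH5 had 2 and 0, and VWF had 1 and 3. CD68 (235.37 and 244.36 reads), CD14 (112 and 94) and PECAM1 (60 and 63) were detected in both libraries. The summed TPM of these markers was 16.16 in Huh7-NC against 21.13 in Huh7-si, with COL1A1 (76 and 229 reads) and COL3A1 (19 and 44 reads) higher, and their part in the results was not tested. Fold changes over all genes moved with gene length. Among genes with at least 10 reads, in 20 bins of length, the bin medians of the log2 fold change ran from -0.17 at 702 to 961 bases to 0.67 from 8484 bases on.

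The replication genes as a group were somewhat lower in the Huh7-si library. Together they took 150603 reads in Huh7-NC against 120588 in Huh7-si, which is 0.659% and 0.546% of all reads on genes. The log2 fold change of Huh7-si over Huh7-NC lay below 0 in 40 of the 49 genes and above 0 in 9, with a median of -0.27 and a range of -0.79 (TK1) to 1.11 (POLE). Over all 12978 genes with at least 100 reads the median was 0.14. In bulk RNA, fewer cells that transcribe these genes and less of their RNA per cell cannot be told apart.

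A gene was called where its fold was at least 2 and the unadjusted p of a two-sided exact binomial test on the reads was under 0.05. POLE was the only member called higher and no member was called lower at this threshold. Of the 26218 genes with reads, 10.5% were called higher and 1.03% lower, and of the 12978 genes with at least 100 reads, 7.45% and 0.393%. The counts of 1 and 0 are therefore not read as a result about these genes. At a fold of 1.5, POLE was again the only member called higher, and TK1, CDC6, PCNA and GINS2 were called lower, where 20.8% and 3.89% of the genes with at least 100 reads were called.

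The 95% intervals of the fold, which cover counting error only, lay below 0 in 32 members, above 0 in POLE, POLA1, RFC1, POLD3 and CDC7, and included 0 in 12. Among the genes with at least 100 reads, 26.1% had an interval below 0 and 45.9% above it. The test and the intervals compare 2 libraries, not 2 conditions, since no spread between replicates could be measured. The plot by role shows these values.

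**Figure D1:**
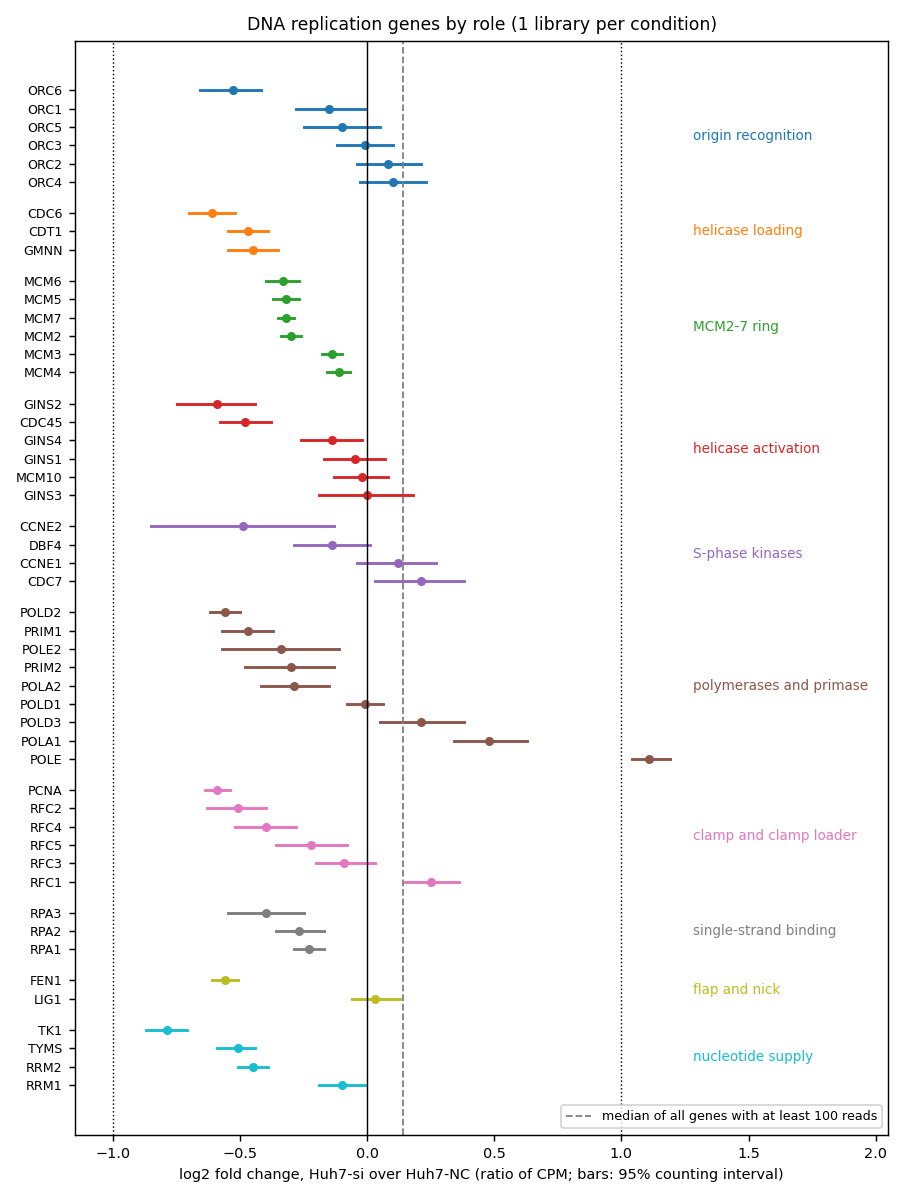
Log2 fold change of each DNA replication gene, Huh7-si over Huh7-NC (x axis, ratio of CPM), grouped and colored by role; each point compares the 2 libraries, bars are 95% counting intervals, dotted lines mark a fold of 2, and the dashed line is the median of all genes with at least 100 reads (0.14). POLE lies past the upper dotted line at 1.11, no gene passes the lower one, and 40 of the 49 points lie below 0.

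Within the polymerase and primase group, POLE stood apart from every other member. POLE, the catalytic subunit of polymerase ε, had 1975.09 reads in Huh7-NC against 4129.75 in Huh7-si, or 86.4 and 187 CPM, a fold of 2.16 (log2 fold change 1.11, interval 1.04 to 1.19). The gene lies on chromosome 12 (GRCh38, chr12:132623753-132687365, minus strand), and no annotated gene with at least 10 reads overlaps it. At 7823 bases it was also the longest of the 49 genes, and genes of like length had a median log2 fold change of 0.54, so that 0.57 remained relative to them. That is under a fold of 2, as was the value of 0.89 with TMM scaling.

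POLE2, the second subunit of the same enzyme, did not share this value. It had 365 reads in Huh7-NC against 279 in Huh7-si, or 16.0 and 12.6 CPM (log2 fold change -0.34, interval -0.57 to -0.11). The TPM ratio of POLE to POLE2 was 1.31 in Huh7-NC against 3.83 in Huh7-si, a difference of 1.54 on the log2 scale. From CPM the difference in log2 fold change was 1.45 (interval 1.21 to 1.69), or 0.95 relative to genes of like length. This pair and the pairs of subunits below were picked after their values were seen. The small histone-fold subunits of polymerase ε, which are not among the 49 genes and were added after their values were seen, had log2 fold changes of -0.13 (POLE3, interval -0.21 to -0.05) and -0.38 (POLE4, interval -0.53 to -0.22). Relative to genes of like length POLE3 and POLE4 were at -0.20 and -0.23, but in TPM both lay above 0, at 0.09 and 0.23.

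Polymerase α showed a like spread between subunits at smaller size. POLA1, its catalytic subunit, had 706 reads in Huh7-NC against 954 in Huh7-si, or 30.9 and 43.2 CPM (log2 fold change 0.48, interval 0.34 to 0.63). Its partner POLA2 had -0.29, and the primase subunits PRIM1 and PRIM2, which make the RNA primers, had -0.47 and -0.30. POLA1 exceeded POLA2 by 0.77 (interval 0.58 to 0.96) and PRIM1 by 0.96 (interval 0.78 to 1.13) in log2 fold change, and by 0.58 in both cases relative to genes of like length. The POLA1 value itself was 0.07 on that scale. PRIM1 shares 33 bases on the same strand with NACA, which had 14671.41 and 10895.61 reads, and POLA2 overlaps AP000944.2 on the same strand (291.74 and 127.30 reads), so reads could have been split between these genes.

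In polymerase δ the lowest value of the group was found. POLD2, an accessory subunit, had 5688 reads in Huh7-NC against 3728 in Huh7-si, or 249 and 169 CPM, 32.2% less (log2 fold change -0.56, interval -0.62 to -0.50). The catalytic subunit POLD1 had 148 and 147 CPM, a log2 fold change of -0.01 with an interval of -0.08 to 0.06. POLD3, which links the enzyme to PCNA, had 575 and 643 reads, or 25.2 and 29.1 CPM (log2 fold change 0.21, interval 0.05 to 0.38), but -0.04 relative to genes of like length and -0.01 with TMM scaling. POLD1 and POLD3 exceeded POLD2 by 0.55 (interval 0.46 to 0.64) and 0.77 (interval 0.60 to 0.94).

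The 4 nucleotide supply genes had a median of -0.48, each with an interval below 0. TK1, the thymidine kinase that salvages thymidine, had the lowest value of all 49 genes. It had 3636 reads in Huh7-NC against 2035 in Huh7-si, or 159 and 92.1 CPM, 42.1% less (log2 fold change -0.79, interval -0.87 to -0.71), and -0.83 relative to genes of like length. With TMM scaling the TK1 value was -1.01, which passes the fold threshold, and in TPM it was -0.45 (166.48 and 121.71 TPM).

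TYMS, the thymidylate synthase, had 152 and 107 CPM (log2 fold change -0.51). It overlaps ENOSF1 on the opposite strand, which had 841.99 and 1081.97 reads. RRM2, the small subunit of ribonucleotide reductase and the S-phase-limited part of the enzyme, had 250 and 183 CPM (-0.45, interval -0.51 to -0.39). In TPM the RRM2 values were nearer to each other, at 145.73 and 136.83 (-0.09). RRM1, the large subunit, had 2046 and 1846 reads, or 89.5 and 83.6 CPM (-0.10, interval -0.19 to -0.01), and its ratio of TPM values was above 1, at 0.11 on the log2 scale. RRM1 exceeded RRM2 by 0.35 in log2 fold change (interval 0.24 to 0.46), and by 0.20 in TPM.

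All 3 helicase loading genes were lower in Huh7-si, and they stayed below 0 with each scaling and in TPM. CDC6, the ATPase that joins ORC to load the helicase, had 2689 reads in Huh7-NC against 1706 in Huh7-si, or 118 and 77.2 CPM, 34.4% less (log2 fold change -0.61, interval -0.70 to -0.52). CDC6 is 4564 bases long, and among genes of like length it had the lowest relative value of all 49, -0.99. CDT1, which brings the MCM ring to the origin, had 2990.33 and 2090 reads, or 131 and 94.6 CPM (-0.47, interval -0.55 to -0.39). GMNN (geminin), the inhibitor of CDT1, had 1935 and 1369 reads, or 84.7 and 62.0 CPM (-0.45, interval -0.55 to -0.35). CDT1 and its inhibitor differed in log2 fold change by -0.02, with an interval of -0.15 to 0.11, and their TPM ratio was 0.862 and 0.891 in the 2 libraries.

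The origin recognition complex had a median of -0.05 over its 6 subunits with scaling by total reads, of -0.28 with TMM and of -0.29 relative to genes of like length, with all 6 below 0 on both of these scales, and of 0.27 in TPM, with 5 of 6 above 0. ORC6, the smallest subunit, had 1420.74 reads in Huh7-NC against 948.27 in Huh7-si, or 62.2 and 42.9 CPM, 30.9% less (log2 fold change -0.53, interval -0.66 to -0.42). ORC4 was at the other end with 964.15 and 996.82 reads, or 42.2 and 45.1 CPM (0.10, interval -0.03 to 0.23). ORC1, the largest subunit, had -0.15 (interval -0.28 to -0.01), and ORC2, ORC3 and ORC5 had 0.08, -0.01 and -0.10 with intervals that included 0. ORC4 exceeded ORC6 by 0.63 (interval 0.46 to 0.81), by 1.02 in TPM and by 0.04 relative to genes of like length, and these genes have 6710 and 1615 bases. ORC4 also overlaps ACVR2A (404.14 and 437.17 reads) and MBD5 (332.72 and 335.55 reads) on the opposite strand, and whether strand was used in counting was not stated.

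The MCM2 to MCM7 ring had the highest summed level of the groups by role (1353 and 1282 TPM). Each of its 6 subunits was lower on the CPM scale, while MCM3 and MCM4 had log2 ratios of TPM values of 0.02 and 0.06. The 6 genes together had 63360 reads in Huh7-NC against 51167 in Huh7-si, 0.277% and 0.232% of reads. MCM6 had 4430 and 3400 reads, or 194 and 154 CPM (log2 fold change -0.33, interval -0.40 to -0.27), and MCM4 had 8634 and 7708.90 reads, or 378 and 349 CPM (-0.11, interval -0.16 to -0.07). MCM2, MCM5 and MCM7 had -0.30, -0.32 and -0.32, and MCM3 had -0.14. MCM3 and MCM4 were thus nearer to 0 than the other 4 subunits, and MCM4 exceeded MCM6 by 0.22 (interval 0.14 to 0.30). Relative to genes of like length all 6 lay between -0.58 and -0.32.

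The genes that turn the loaded ring into an active helicase were split. GINS2 had 908 reads in Huh7-NC against 582 in Huh7-si, or 39.7 and 26.3 CPM, 33.7% less (log2 fold change -0.59, interval -0.75 to -0.44), and CDC45, which joins GINS and MCM in the active helicase, had 90.0 and 64.6 CPM (-0.48, interval -0.58 to -0.38). GINS3, a subunit of the same complex as GINS2, had 473.26 and 456.18 reads, which is 20.7 CPM in both libraries (interval of the log2 fold change -0.19 to 0.18). GINS1 (-0.05) and MCM10 (-0.02), a factor of helicase activation, also had intervals that included 0, and GINS4 had -0.14 (interval -0.26 to -0.02), but 0.17 in TPM and 0.01 relative to genes of like length. GINS3 exceeded GINS2 by 0.59 (interval 0.35 to 0.83), and by 0.67 relative to genes of like length.

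Among the S-phase kinase genes, reads were fewer and intervals wider. CCNE2, the second cyclin E, was the least abundant member, with 158.12 reads in Huh7-NC against 108.69 in Huh7-si, or 6.92 and 4.92 CPM (log2 fold change -0.49, interval -0.85 to -0.13). It overlaps INTS8 on the opposite strand, which had 1031.88 and 1128.31 reads. CCNE1, the other cyclin E, had 29.8 and 32.3 CPM (0.12, interval -0.04 to 0.27), so the cyclins differed by 0.61 (interval 0.23 to 0.99). In TPM they differed by 0.46, with CCNE2 at -0.12 and CCNE1 at 0.35. CDC7, a kinase of the MCM ring, had 533 and 594 reads, or 23.3 and 26.9 CPM (0.21, interval 0.03 to 0.38). Its activating subunit DBF4 had -0.14 (interval -0.29 to 0.01), and CDC7 itself was at -0.02 with TMM scaling and at the same value against genes of like length.

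The sliding clamp and its loader ranged from PCNA to RFC1. PCNA, the ring that holds the polymerases on DNA, had 8321 reads in Huh7-NC against 5347 in Huh7-si, or 364 and 242 CPM, 33.5% less (log2 fold change -0.59, interval -0.64 to -0.54). RFC1, the large subunit of the clamp loader, had 1500 and 1730 reads, or 65.6 and 78.3 CPM (0.25, interval 0.15 to 0.36), but -0.13 relative to genes of like length. The small subunits RFC2, RFC3, RFC4 and RFC5 had -0.51, -0.09, -0.40 and -0.22, of which the interval of RFC3 included 0. The TPM ratio of RFC1 to RFC2 was 0.457 in Huh7-NC against 0.772 in Huh7-si, a difference of 0.76 on the log2 scale. From CPM the difference in log2 fold change was 0.77 (interval 0.61 to 0.92), or 0.43 relative to genes of like length.

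RPA, the trimer that coats single-stranded DNA, was lower in all 3 subunits with each scaling and in TPM. RPA3 had 841.80 reads in Huh7-NC against 618 in Huh7-si, or 36.8 and 28.0 CPM (log2 fold change -0.40, interval -0.55 to -0.25), RPA2 had 90.7 and 75.5 CPM (-0.27), and RPA1 had 4764 and 3926 reads, or 208 and 178 CPM (-0.23, interval -0.29 to -0.17). RPA1 is the longest of the 3, and relative to genes of like length the order turned, with RPA1 at -0.61, RPA3 at -0.22 and RPA2 at -0.18. RPA3 overlaps UMAD1 on the opposite strand (421.78 and 345.21 reads), and whether strand was used in counting was not stated.

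The enzymes that finish lagging strands differed from each other. FEN1, the nuclease that cuts the flap of each Okazaki fragment, had 8057 reads in Huh7-NC against 5299 in Huh7-si, or 353 and 240 CPM, 32.0% less (log2 fold change -0.56, interval -0.61 to -0.51). LIG1, the ligase that closes the nick, had 1818 and 1795 reads, or 79.6 and 81.3 CPM (0.03, interval -0.06 to 0.13). LIG1 exceeded FEN1 by 0.59 (interval 0.48 to 0.69), and by 0.41 relative to genes of like length. FEN1 overlaps FADS2 on the same strand, which had 19792.08 and 17734.44 reads, so its reads could have been split with that gene.

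Longer members tended to have higher values, as did longer genes in general. The rank correlation (Spearman's rho) of length with log2 fold change was 0.49 over the 49 genes, 0.46 without POLE, and 0.54 over 11841 protein-coding genes with at least 100 reads, in the same 2 libraries. Of the 26 members of at most 3000 bases, 25 lay below 0 and the median was -0.43, and of the 23 longer members 15 lay below 0 and the median was -0.10. When the median of genes of like length was subtracted, 45 of the 49 lay below 0, with a median of -0.36 and a range of -0.99 (CDC6) to 0.57 (POLE), and only POLE, CCNE1, POLA1 and GINS4 lay above it. Of the 12978 genes with at least 100 reads, 7410 lay below 0 on this scale and their median was -0.07. The medians of the short and long members on this scale were -0.41 and -0.32. The bins rest on the deposited length of each gene, which did not always go with its TPM. In Huh7-NC, GINS4 (1158 bases) had 52.7 CPM but 32.02 TPM, while RFC4 (1365 bases) had 60.5 CPM and 75.35 TPM. The sign of values near 0 on this scale, such as 0.01 for GINS4, depends on that length.

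**Figure D2:**
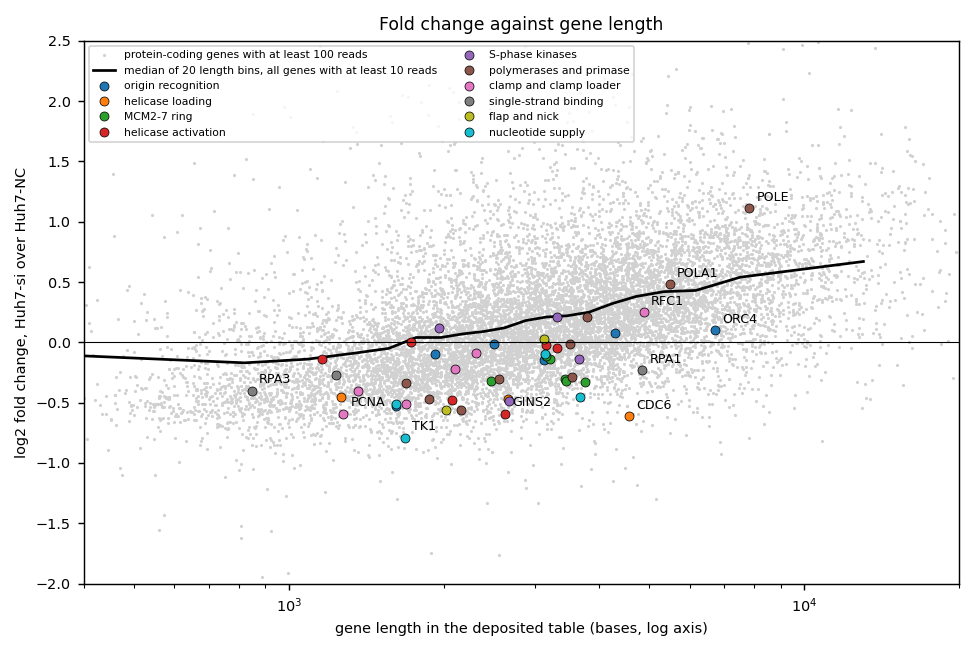
Log2 fold change (y axis, Huh7-si over Huh7-NC, shown from -2 to 2.5) against gene length in bases (x axis, log scale), with protein-coding genes of at least 100 reads in gray, the medians of 20 length bins as a line and the 49 replication genes colored by role. The line first falls to -0.17 at 702 to 961 bases and then climbs to 0.67, and 45 of the 49 genes lie below the median of their own length bin.

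Per length, the members spanned from 3.50 (CCNE2) to 524.44 TPM (MCM7) in Huh7-NC and from 3.23 to 489.16 TPM for the same genes in Huh7-si. MCM7, PCNA (411.56 and 308.31 TPM), MCM4 (240.60 and 250.66 TPM), FEN1 (234.38 and 180.03 TPM) and POLD2 (229.38 and 187.20 TPM) were among the most abundant. Within the MCM ring the levels differed widely, from 64.25 and 58.61 TPM for MCM6 to those of MCM7. The catalytic polymerase subunits were lower, at 11.96 and 16.19 TPM for POLA1, 21.54 and 53.50 TPM for POLE and 77.45 and 87.99 TPM for POLD1.

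The ratio of TPM values had a median log2 of -0.09 over the members, with 27 below 0 and 21 above. All genes with at least 100 reads had a median of 0.33 on that scale, so the members lay under it by about the same distance as on the CPM scale. ORC4 showed the widest gap between the scales, 0.10 from CPM and 0.62 from TPM (12.26 and 18.82 TPM). With a fixed length per gene this gap would be the same for every gene, but POLA1 was at 0.48 from CPM and 0.44 from TPM. The lengths behind the TPM values thus differed by gene and library, and how they were set was not stated. TPM folds therefore also hold this difference in lengths.

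**Figure D3:**
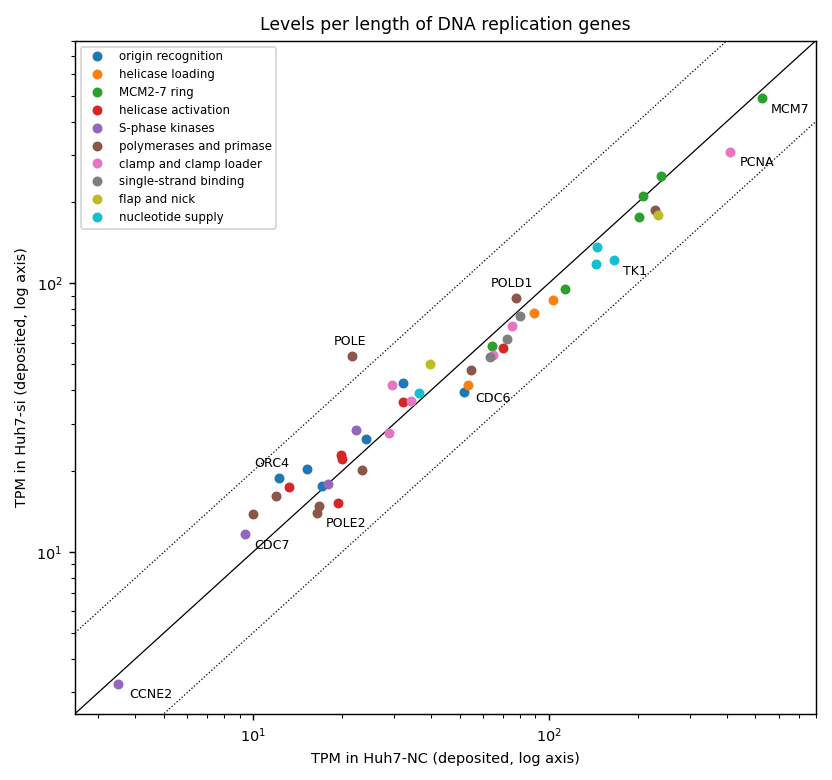
TPM of each replication gene in Huh7-NC (x axis, log scale) and Huh7-si (y axis, log scale), colored by role, with the line of equal levels and dotted lines at a fold of 2. POLE (21.54 and 53.50 TPM) is the only gene past a dotted line, and MCM7 and PCNA lie below the line of equal levels at the upper end.

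TMM scaling moved every gene by -0.22 and brought the median of all genes with at least 10 reads from 0.21 to -0.01. With it 46 of the 49 members lay below 0 and their median was -0.49, with POLE (0.89), POLA1 (0.26) and RFC1 (0.03) above 0. CDC7 and POLD3 were at -0.02 and -0.01. On each of the 4 scales the median of the members was lower than that of all genes, and POLE was the highest member and above 0.

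**Figure D4:**
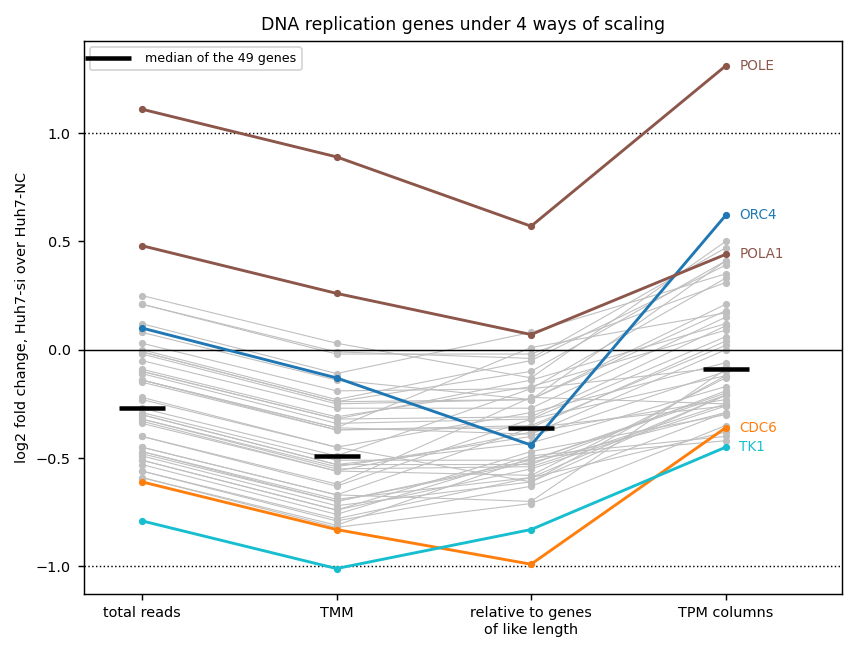
Log2 fold change of each of the 49 genes (y axis, Huh7-si over Huh7-NC) with scaling by total reads, TMM scaling, relative to genes of like length, and from the TPM columns (x axis, left to right); each line is 1 gene, black bars are medians and dotted lines mark a fold of 2. The medians are -0.27, -0.49, -0.36 and -0.09, and POLE is the highest gene on each scale.

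The wider pathway was described with 45 further replication genes and 33 regulators of the G1/S transition. Of the 45, CHTF18 and MCM9 were called higher and none was called lower, the median log2 fold change was -0.07, and 17 intervals lay above 0 and 22 below. Among all genes with at least 100 reads, 7.45% were called higher and 0.393% lower, and 45.9% of intervals lay above 0 and 26.1% below, so the call counts of the 45 are not read as a result about them. CHTF18, a subunit of an alternative clamp loader, had 1227 reads in Huh7-NC against 4236 in Huh7-si, or 53.7 and 192 CPM (log2 fold change 1.84, interval 1.74 to 1.93), and 1.61 relative to genes of like length, so that it was past the fold threshold on both scales. It shares 352 bases on the opposite strand with RPUSD1, which had 1022 and 842 reads. MCM9, a helicase of DNA repair, had 106.13 and 205.58 reads, or 4.64 and 9.31 CPM (1.0, interval 0.66 to 1.36) and was at 0.59 relative to genes of like length, and it overlaps ASF1A on the opposite strand (1468.87 and 1314.42 reads).

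The next highest was MCM8, the partner of MCM9, with 209.81 and 353.72 reads (9.18 and 16.0 CPM, log2 fold change 0.80). The lowest 3 were TIPIN, which protects stalled forks, with 606 and 385 reads (26.5 and 17.4 CPM, -0.61), RNASEH2A, which removes RNA from DNA, with 1710.86 and 1106.85 reads (74.9 and 50.1 CPM, -0.58), and DUT, the dUTPase, with 1046.61 and 687.90 reads (45.8 and 31.1 CPM, -0.56). Relative to genes of like length the median of the 45 was -0.21, against -0.36 for the 49 members.

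No G1/S regulator was called in either direction, and the median of the 33 was -0.17, with 9 intervals above 0, 14 below and 10 that included it. The absence of calls is set beside the same 7.45% and 0.393% of all genes, and the intervals beside 45.9% and 26.1%, and it is not read as a result either. The highest were RBL2, a pocket protein of the retinoblastoma family (610.43 and 1052.92 reads, 26.7 and 47.7 CPM, log2 fold change 0.84), CDK6 (727 and 1149 reads, 31.8 and 52.0 CPM, 0.71) and the E2F activator E2F3 (574 and 833 reads, 25.1 and 37.7 CPM, 0.59). The lowest were CCND3, a D-type cyclin (447 and 276 reads, 19.6 and 12.5 CPM, -0.65), E2F5 (674.75 and 444.32 reads, 29.5 and 20.1 CPM, -0.55) and MYBL2, a transcription factor of cell cycle genes (8120 and 5421 reads, 355 and 245 CPM, -0.53). CCND2 had 0 and 1 reads and gave no fold. E2F1, an activator of many of the 49 genes, had 93.4 and 71.7 CPM (-0.38, interval -0.48 to -0.29), and the CDK inhibitor CDKN1A had 15.7 and 11.1 CPM (-0.50, interval -0.74 to -0.26), these last 2 chosen after their values were seen. The other CDK inhibitors of the list went both ways. CDKN1B (0.23) and CDKN2B (0.55) had intervals above 0, CDKN1C (-0.49) and CDKN2A (-0.35) below 0, and those of CDKN2C (-0.22) and CDKN2D (-0.20) included 0.

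**Figure D5:**
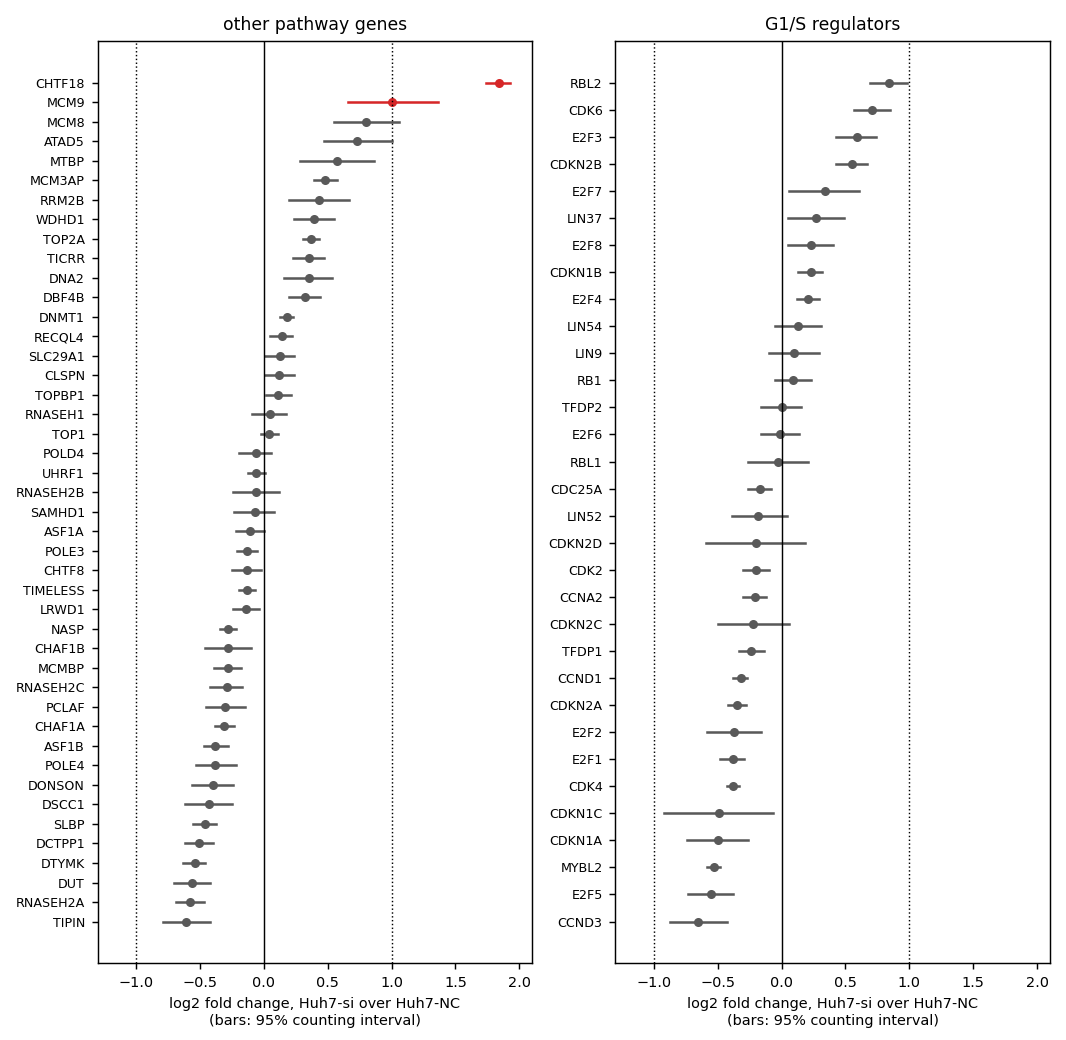
Log2 fold change (x axis, Huh7-si over Huh7-NC) with 95% counting intervals of the other replication genes (left) and of the G1/S regulators with at least 100 reads (right), sorted by value, with dotted lines at a fold of 2 and called genes in red. CHTF18 (1.84) and MCM9 (1.0) are the called genes of the left panel, and the right panel, from RBL2 (0.84) to CCND3 (-0.65), has none.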

How the data were processed

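The authors deposited, per gene, estimated counts of reads that were not scaled to library size and TPM values; their own fold, p-value and direction columns were not used. The labels' processing notes name TopHat2 2.0.12, Bowtie2 2.0.6 and GRCh37, with no roles given; the counter, annotation and strandedness are not given in the sources used here. Positions and overlaps were taken from GENCODE release 29 (GRCh38), which holds 94.8% of the gene IDs. The table held 22852648 reads for Huh7-NC and 22089016 for Huh7-si.

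CPM were computed from total reads on genes. Reads, rounded to whole numbers, entered an exact binomial test (two-sided) with 95% Clopper-Pearson intervals, checked on simulated reads. That check used folds larger than the threshold, and passing was required only without added variation between libraries. Differences between 2 genes carry Wald intervals of the counts. Intervals cover counting error only, and with 1 library per condition no replicate spread entered any p-value. A gene was called where its fold reached 2 or more with p, not adjusted, under 0.05. Values relative to genes of like length subtract the median of 20 length bins of genes with at least 10 reads. In each role, full values are given for called members and for the highest and lowest log2 fold change; of the wider lists, the called genes and the 3 highest and 3 lowest are named. 1 gene of the wider lists is counted but not reported or plotted here. The members and lists were chosen with earlier results of these data known. Alternatives were TMM (edgeR 4.0.16), the median of ratios (DESeq2 1.42.0), upper quartile, TPM, a pseudocount of 1 CPM, a fold of 1.5, Benjamini-Hochberg adjustment, the exact test of edgeR at a preset coefficient of biological variation of 0.4, and at least 10 reads in each library. Shares among genes with at least 100 reads were added after seeing the data. Python 3.11.15, SciPy 1.17.1 and R 4.3.3 were used.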

Additional observations from a re-analysis of the deposited data

How the results depend on the processing

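Without replicates no change can be separated from the difference between any 2 cultures, and no paired analysis was possible because each condition has 1 library and no replicate number. The BRF2 value stayed past the threshold in all 6 alternatives, from -1.99 to -1.59. The count of members called higher was 0 in place of 1 with TMM, the median of ratios, the upper quartile, relative to genes of like length and at a preset coefficient of biological variation of 0.4, since POLE was then at 0.89, 0.91, 0.93 and 0.57 in the first 4. Members called lower went from 0 to 1 with TMM (TK1, -1.01) and to 4 at a fold of 1.5. In the wider lists, the genes called higher went from 2 to 1 with TMM, the median of ratios, the upper quartile, relative to genes of like length, a pseudocount of 1 CPM and the preset coefficient of 0.4, and to 7 at a fold of 1.5, where 2 were called lower. Benjamini-Hochberg adjustment and at least 10 reads in each library left these counts as they were. The members' median of -0.27 was -0.49 with TMM, -0.47 with the median of ratios, -0.45 with the upper quartile and -0.09 in TPM.

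Of the members whose interval did not include 0, ORC1 (0.04), MCM3 (0.02), MCM4 (0.06), GINS4 (0.17) and RRM1 (0.11) lay above 0 in TPM. GINS4 (0.01) lay above 0, and RFC1 (-0.13), POLD3 (-0.04) and CDC7 (-0.02) below 0, relative to genes of like length. POLD3 (-0.01) and CDC7 (-0.02) lay below 0 with TMM, and CDC7 (-0.00) with the median of ratios. The cause was not tested. Depth limits CCNE2 and POLE2 most, whose intervals are the widest.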

Other observations

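Some of the 45 further replication genes are listed here by function. These sets were put together after the values were seen, so a difference between sets was not tested. The chromatin assembly factors CHAF1A, CHAF1B, ASF1B, NASP and ASF1A place histones behind the fork. Their log2 fold changes were -0.31, -0.28, -0.38, -0.28 and -0.11. Each had an interval below 0, which for ASF1A was -0.22 to -0.00. In TPM these 5 genes, in the same order, were at -0.41, -0.06, -0.19, -0.02 and 0.14. The nucleotide enzymes DTYMK, DCTPP1 and DUT had -0.54, -0.51 and -0.56, and SAMHD1 had -0.07 with an interval of -0.23 to 0.08. RRM2B, the ribonucleotide reductase subunit used outside S phase, had 11.9 CPM in Huh7-NC and 16.1 in Huh7-si (0.43, interval 0.20 to 0.67). The subunits of the alternative clamp loader diverged, with CHTF18 at 1.84, CHTF8 at -0.13 and DSCC1 at -0.43 (24.7 and 18.3 CPM, interval -0.62 to -0.25). CHTF8 was at 0.01 relative to genes of like length and at 0.13 in TPM, and DSCC1 at -0.50 and -0.24. ATAD5, the unloader of PCNA, had 8.45 and 14.0 CPM (0.73, interval 0.47 to 1.0) and 0.19 relative to genes of like length.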
